A study of Mus musculus with 4 samples.

Results

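The clustered protocadherins are cell-surface adhesion proteins of the cadherin superfamily whose genes lie side by side in 3 clusters, alpha, beta and gamma. They were examined here in the otic vesicle, the epithelial sac from which the inner ear forms, of Meis2 mutant mouse embryos (KO 1 and KO 2) and wild-type embryos (WT 1 and WT 2). All 4 libraries came from strain C57/BL6 at embryonic day 11.5, and the mutated gene, Meis2, codes for a DNA-binding protein of the TALE homeodomain family. The sources used here give neither the allele, nor any Cre driver, nor the number of embryos behind a library, so p-values measure only how these libraries vary, and that variation may be technical in part. The members are the protein-coding genes whose symbols begin with Pcdha, Pcdhb or Pcdhg followed by a cluster number or C-type name. They number 57 of the 34866 genes listed, with 14 in the alpha, 22 in the beta and 21 in the gamma cluster. Values are TPM, transcript abundances corrected for transcript length and scaled to 1000000 per library, so levels of different genes can be set side by side. Sequencing depth cannot be read from TPM and is unknown for every library.

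In the alpha and gamma clusters, each gene has its own promoter and a large variable exon that encodes the whole extracellular part, the membrane span and a piece of the cytoplasmic tail. That exon is spliced to constant exons shared by the cluster, which encode the common end of the tail, whereas beta genes have no such constant exons. In neurons, promoter choice is stochastic for most members and involves CTCF and cohesin, while the C-type genes at the 3′ ends of the alpha and gamma clusters are regulated differently. The proteins form recognition units that bind matching units on other cells, and in mouse they are known for dendrite self-avoidance, synapse formation and neuronal survival. In the developing brain and spinal cord they are best studied in neurons, and gamma genes are also expressed by other cells.

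All members lie on chromosome 18 (GRCm38). The alpha genes span 36930184 to 37187661, the beta genes 37264938 to 37524479 and the gamma genes 37661793 to 37841873. The annotation gives the 14 alpha genes 2860 exonic bases in common and the 21 gamma genes 2116, while the 22 beta genes have 0 in common. Between 8.6 and 61.1% of an alpha gene's exonic bases belong to no other annotated gene, and the range is 33.2 to 68.5% for gamma and 90.3 to 100% for beta genes. Reads from the shared exons of the alpha and gamma genes had to be divided among members by the quantification, so the split between individual genes of these clusters is less certain than their sum. The annotation puts the symbol Pcdha11 on 2 IDs, which are named below by ID.

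The otic vesicles expressed mainly gamma protocadherins, and within that cluster mainly Pcdhgc3, a C-type gene. The summed gamma level was 199 TPM in KO 1 and 187 TPM in KO 2, against 172 TPM in WT 1 and 169 TPM in WT 2. The beta genes together were at 21.9 TPM in KO 1 and 12.1 TPM in KO 2, against 15.3 TPM in WT 1 and 17.5 TPM in WT 2. The alpha genes together were at 1.65 TPM in KO 1 and 2.31 TPM in KO 2, against 1.59 TPM in WT 1 and 1.31 TPM in WT 2. The gamma cluster thus held most of the protocadherin RNA in every library, with 89.5 and 92.8% of the summed level in KO and 91.1 and 90.0% in WT. By gene, mean levels over the 4 libraries ran from 1.43 to 86.9 TPM for gamma members (median 3.57 TPM), from 0.0117 to 3.02 TPM for beta members (median 0.614 TPM) and from 0 to 0.376 TPM for alpha members (median 0.105 TPM).

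**Figure D1:**
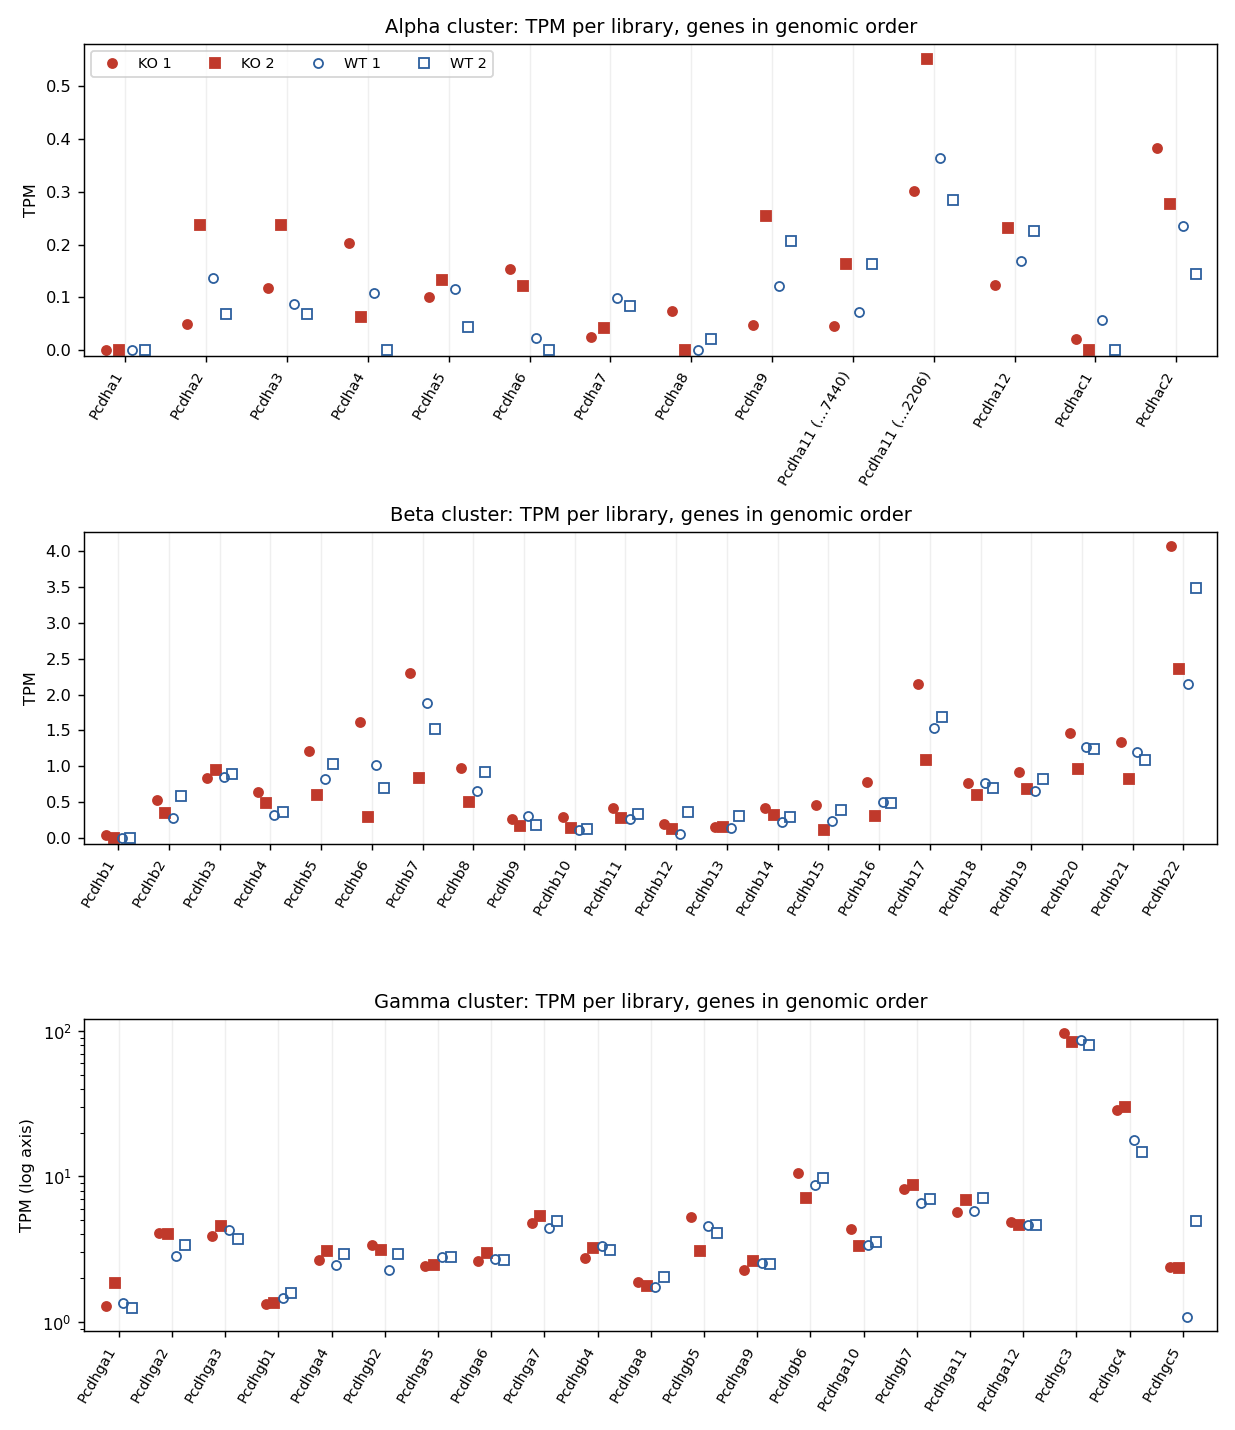
TPM of each of the 57 members in each library, genes in genomic order (horizontal axis) and TPM on the vertical axes (a log axis for gamma), with filled red points for KO and open blue points for WT (circles for number 1, squares for number 2). Gamma genes lie above most beta genes and alpha genes lie lowest, with Pcdhgc3 between 79.7 and 96.1 TPM and Pcdhgc4 between 14.8 and 30.1 TPM.

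**Figure D2:**
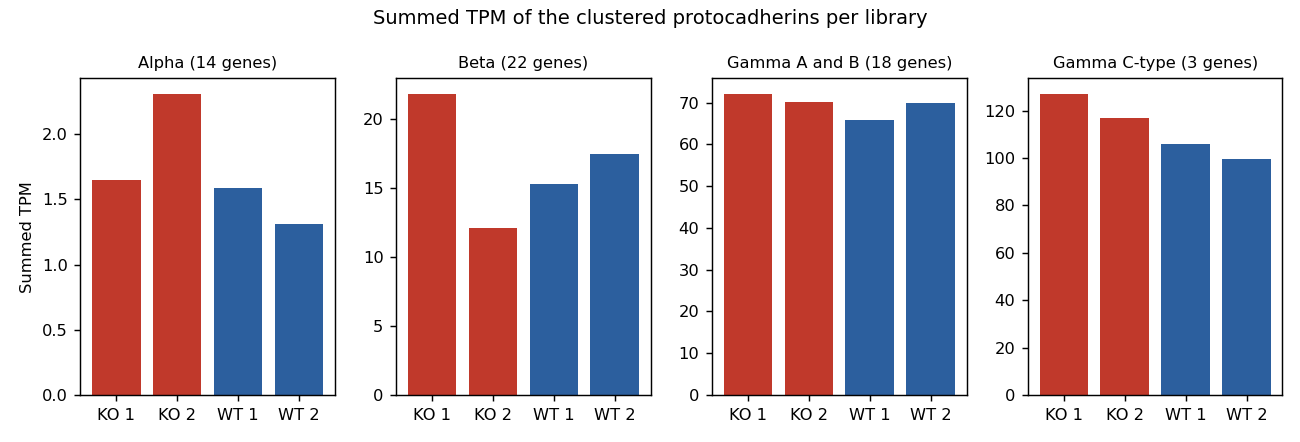
Summed TPM of the alpha genes, the beta genes, the gamma A and B genes and the gamma C-type genes (vertical axes, which start at 0 and differ in scale) in KO 1, KO 2, WT 1 and WT 2, with a bar for each library. The gamma C-type genes stand at 127 and 117 TPM in KO, against 106 and 99.4 TPM in WT, and for beta KO 1 is highest at 21.9 TPM and KO 2 lowest at 12.1 TPM.

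Genotype was compared gene by gene with limma on log2(TPM + 1) over the 14496 genes that averaged at least 1 TPM, of which 26 were members (all 21 gamma, 5 beta and 0 alpha). None of the 26 passed an adjusted p of 0.05, and neither did any other gene (0 of 14496, or 0%). At an unadjusted p under 0.05, limma called 507 genes (3.5% of those tested) and 1 of the 26 members, a share near that background. The median log2 difference, KO minus WT, was 0.04 over the 21 gamma genes and -0.03 over the 5 beta genes, against 0.03 over all genes tested. KO averaged above WT on the log2(TPM + 1) scale for 12 of the 21 gamma genes and 1 of the 5 beta genes, beside 61.6% of all genes tested. The gamma median ran from -0.00 to 0.05 with each library left out in turn. The beta median was -0.23 without KO 1 and 0.27 without KO 2, so its direction depended on which KO library was used.

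Of the 26 tested members, the one with the smallest limma p was Pcdhgc4, the C-type gene that mouse genetics has tied to survival of interneurons. It had 28.7 TPM in KO 1 and 30.1 TPM in KO 2, against 17.8 TPM in WT 1 and 14.8 TPM in WT 2. Both KO libraries were well above both WT libraries, and the lower KO value was 1.62 times the higher WT value. Mean levels were 29.4 ± 0.951 TPM in KO and 16.3 ± 2.10 TPM in WT (SD, n = 2 each), a ratio of 1.81. The log2 difference was 0.82 (SE 0.12; limma unadjusted p = 0.0014, adjusted p = 1.00), which ranked 19 of 14496 by p and did not pass the threshold. A gap between lowest KO and highest WT value at least as wide in ratio was found in 57 of the genes tested, and in 4 of the 9498 that averaged at least 10 TPM, Pcdhgc4 included. A log2 difference as large or larger was found in 101 of the genes tested and in 20 of the 9498, Pcdhgc4 included. The gap and the limit of 10 TPM were not among the planned comparisons. In whole vesicles, a change in the number of cells that express a gene and a change of its RNA per cell cannot be told apart.

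Pcdhgc4 lies at 37815079 to 37841873 on chromosome 18, and 3477 of its 5596 annotated exonic bases (62.1%) belong to no other annotated gene. Its neighbours in the annotation have like shares of exonic bases of their own, 61.5% for Pcdhgc3 (37806364 to 37841873) and 60.4% for Pcdhgc5 (37819513 to 37841873), and their levels overlapped between genotypes. Pcdhgc3, which in mouse promotes dendrite branching of cortical neurons and binds Axin1, had 96.1 TPM in KO 1 and 84.6 TPM in KO 2, against 87.1 TPM in WT 1 and 79.7 TPM in WT 2. KO 2 was below WT 1, and its log2 difference was 0.11 (SE 0.10; limma adjusted p = 1.00). Pcdhgc5, an isoform that in mouse brain appears late in development, had 2.37 TPM in KO 1 and 2.35 TPM in KO 2, against 1.08 TPM in WT 1 and 4.94 TPM in WT 2. The KO libraries were alike and lay between the WT libraries, which differed 4.59-fold. Its log2 difference was -0.06 (SE 0.53; limma adjusted p = 1.00).

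These TPM values can also be expressed as proportions within the cluster, which is a description of them and no check of how reads from shared exons were split. The ratio of Pcdhgc4 to Pcdhgc3 was 0.299 in KO 1 and 0.356 in KO 2, against 0.204 in WT 1 and 0.186 in WT 2. Pcdhgc4 made up 14.4% of the gamma sum in KO 1 and 16.1% in KO 2, against 10.3% in WT 1 and 8.74% in WT 2. Pcdhgc4 was thus a larger part of the gamma RNA in both KO libraries than in either WT library. Pcdhgc3 supplied between 45.2 and 50.7% of the gamma sum in the 4 libraries.

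The summed gamma level averaged 193 ± 8.65 TPM in KO and 171 ± 1.70 TPM in WT (SD, n = 2 each), a ratio of 1.13 with no overlap. No test was run on the cluster sums, since an exact permutation test of 2 libraries against 2 cannot give a two-sided p below 0.333. Of the difference of 22.8 TPM, Pcdhgc4 accounted for 13.1 TPM (57.6%) and Pcdhgc3 for 7.005 TPM (30.7%). Without both genes, the gamma sum was 74.6 TPM in KO 1 and 72.5 TPM in KO 2, against 66.9 TPM in WT 1 and 74.9 TPM in WT 2, and the genotypes overlapped. In that sum WT 2 was raised by Pcdhgc5. The gamma A and B genes alone summed to 72.2 TPM in KO 1 and 70.2 TPM in KO 2, against 65.8 TPM in WT 1 and 69.9 TPM in WT 2, which left no overlap but a gap between KO 2 and WT 2 that was small beside the spread within WT. Without Pcdhgc4 alone, the gamma sum was 171 TPM in KO 1 and 157 TPM in KO 2, against 154 TPM in WT 1 and 155 TPM in WT 2, again with no overlap. Most of the difference in TPM was thus in 2 of the 21 genes, and both KO sums of the A and B genes were still above both WT sums.

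**Figure D3:**
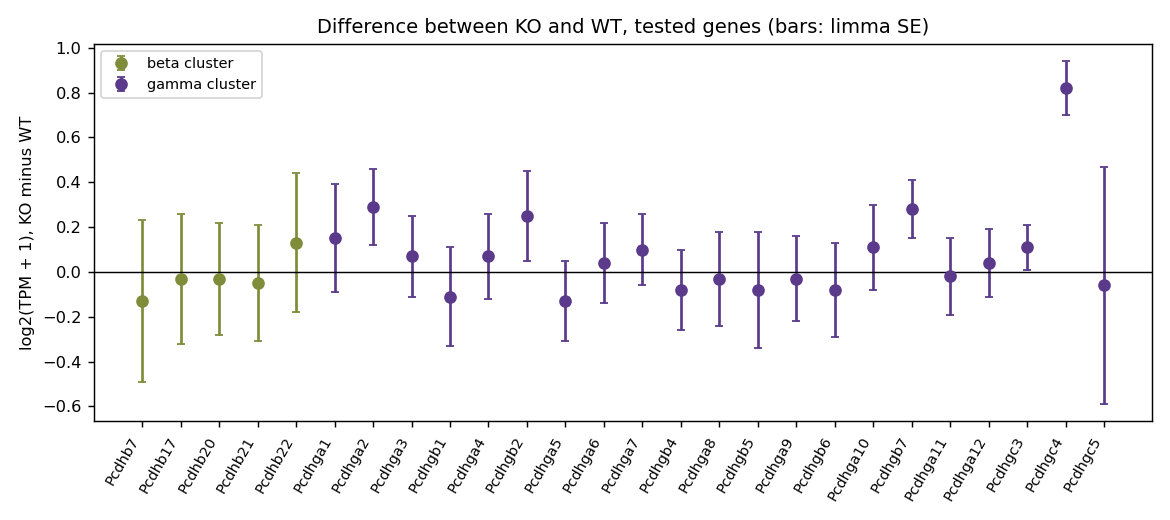
Log2 difference of log2(TPM + 1), KO minus WT, with its limma SE as bars (vertical axis), for the 26 tested members in genomic order (horizontal axis). Pcdhgc4 lies at 0.82, and the gamma A and B genes lie between -0.13 and 0.29.

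The 18 gamma A and B genes, the variable isoforms that in neurons are chosen stochastically, had small log2 differences between genotypes, from -0.13 to 0.29. Their mean levels ran from 1.43 to 9.06 TPM, and 18 of 18 had a log2 difference under 0.3 in size, a limit that was not planned. Most genes tested had small differences too, with 5th and 95th percentiles of -0.30 and 0.36. Pcdhgb6, the most abundant, had 10.6 TPM in KO 1 and 7.13 TPM in KO 2, against 8.79 TPM in WT 1 and 9.75 TPM in WT 2. The KO libraries were its highest and lowest, and its log2 difference was -0.08 (SE 0.21; limma adjusted p = 1.00). Pcdhgb7 had 8.15 TPM in KO 1 and 8.74 TPM in KO 2, against 6.56 TPM in WT 1 and 7.04 TPM in WT 2. Both KO libraries were above both WT libraries, with a log2 difference of 0.28 (SE 0.13; limma unadjusted p = 0.091, adjusted p = 1.00). The 2 most abundant gamma A genes overlapped between genotypes. Pcdhga11 had 5.73 TPM in KO 1 and 6.88 TPM in KO 2, against 5.78 TPM in WT 1 and 7.07 TPM in WT 2, and Pcdhga7 had 4.78 and 5.38 TPM in KO, against 4.45 and 4.93 TPM in WT. Their log2 differences were -0.02 for Pcdhga11 and 0.10 for Pcdhga7.

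Both KO libraries were above both WT libraries for 5 of the 21 gamma genes (Pcdhga2, Pcdhgb2, Pcdhgb7, Pcdhga12 and Pcdhgc4), beside 19.2% of all genes tested. They were below for 2 of the 21 (Pcdhgb1 and Pcdhga5), beside 10.5% of all genes tested. The first share is close to the background and so is the second. Pcdhgb2 had 3.38 TPM in KO 1 and 3.12 TPM in KO 2, against 2.26 TPM in WT 1 and 2.93 TPM in WT 2. On the other side, Pcdhga5 had 2.43 TPM in KO 1 and 2.47 TPM in KO 2, against 2.77 TPM in WT 1 and 2.81 TPM in WT 2, and Pcdhgb1 had 1.33 and 1.35 TPM in KO, against 1.46 and 1.58 TPM in WT. These gaps were small beside that of Pcdhgc4. Pcdhga2, chosen after its values were seen, had the largest log2 difference of the A and B genes. Its level was 4.05 TPM in KO 1 and 3.99 TPM in KO 2, against 2.85 TPM in WT 1 and 3.399 TPM in WT 2, a log2 difference of 0.29 (SE 0.17). Pcdhga12 showed how small a separation without overlap can be, with 4.84 and 4.66 TPM in KO, against 4.62 and 4.61 TPM in WT. Along the chromosome, mean TPM of the 18 A and B genes tended to be higher towards the constant exons (Spearman's rho 0.58 over genes of the same 4 libraries, given as a description). Pcdhgb8, a polymorphic pseudogene in the annotation and therefore no member, had 5.54 TPM in KO 1 and 1.38 TPM in KO 2, against 3.33 TPM in WT 1 and 3.27 TPM in WT 2.

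Beta genes showed no common difference between genotypes, and the KO libraries differed from each other more than the WT libraries did. Their sum averaged 17.0 ± 6.87 TPM in KO and 16.4 ± 1.57 TPM in WT (SD, n = 2 each). Pcdhb22, the most abundant, had 4.07 TPM in KO 1 and 2.35 TPM in KO 2, against 2.15 TPM in WT 1 and 3.49 TPM in WT 2. Pcdhb7 had 2.30 TPM in KO 1 and 0.834 TPM in KO 2, against 1.88 TPM in WT 1 and 1.51 TPM in WT 2. In both genes the genotypes overlapped, with log2 differences of 0.13 (SE 0.31) for Pcdhb22 and -0.13 (SE 0.36) for Pcdhb7 (limma adjusted p = 1.00 for each). Of the other tested beta genes, Pcdhb17 had 2.15 TPM in KO 1 and 1.08 TPM in KO 2, against 1.54 TPM in WT 1 and 1.69 TPM in WT 2. Pcdhb20 had 1.47 TPM in KO 1 and 0.968 TPM in KO 2, against 1.27 TPM in WT 1 and 1.25 TPM in WT 2. Pcdhb21 had 1.35 TPM in KO 1 and 0.826 TPM in KO 2, against 1.19 TPM in WT 1 and 1.08 TPM in WT 2. In all 3 genes KO 1 was the highest and KO 2 the lowest library, so that the WT values lay between the KO values. The direction of the beta sum rested on single KO libraries. The log2 ratio of KO over WT was 0.05 with all 4 libraries, -0.43 without KO 1 and 0.42 without KO 2. Pcdhb21 and Pcdhb22 overlap in the annotation, so their split is uncertain.

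The contrast within the KO pair ran through nearly the whole beta cluster. KO 2 was below KO 1 for 21 of the 22 beta genes, beside 44.9% of all genes above 0 in any library, and Pcdhb3 was the exception (0.833 TPM in KO 1 and 0.952 TPM in KO 2). In the wild type, WT 2 was below WT 1 for 7 of the 22, beside 41.8% of genes. KO 1 was the highest of the 4 libraries for 16 of the 22 (26.3% of genes), and KO 2 was the lowest for 11 of the 22 (17.4% of genes). Pcdhb6, chosen after its values were seen, had 1.62 TPM in KO 1 and 0.290 TPM in KO 2, against 1.01 TPM in WT 1 and 0.702 TPM in WT 2, a 5.596-fold gap between the KO libraries. The beta sum of KO 1 was 1.80 times that of KO 2, whereas WT 2 and WT 1 differed 1.15-fold. These counts are descriptions of 4 libraries, and beta genes of a library are not independent of each other. Genes above 0 numbered 21685 in KO 1 and 20829 in KO 2, against 21207 in WT 1 and 21547 in WT 2. The beta sums had the same order. KO 2 values look like means of 3 values and those of the other libraries like means of 4. The background shares cover genes of all levels, and the part of detection in the beta values was not tested.

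The labels do not say what the replicate number stands for. Of the 26 tested members, number 2 was above number 1 in both genotypes for 6, beside 34.8% of all genes tested, and below in both for 6, beside 29.7%. By cluster, number 2 was above in both genotypes for 6 of 21 gamma and 0 of 5 beta genes, and below in both for 3 of 21 gamma and 3 of 5 beta genes. The number therefore did not order the gamma genes alike. The median log2 difference of number 2 minus number 1 over the 21 gamma genes was 0.02 in KO and 0.05 in WT. Over the 22 beta genes it was -0.18 in KO and 0.06 in WT. Gamma B genes were not uniform in KO, since Pcdhgb5 had 5.23 TPM in KO 1 and 3.06 TPM in KO 2, against 4.54 TPM in WT 1 and 4.10 TPM in WT 2. Pcdhgb5 was chosen after its values were seen.

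**Figure D4:**
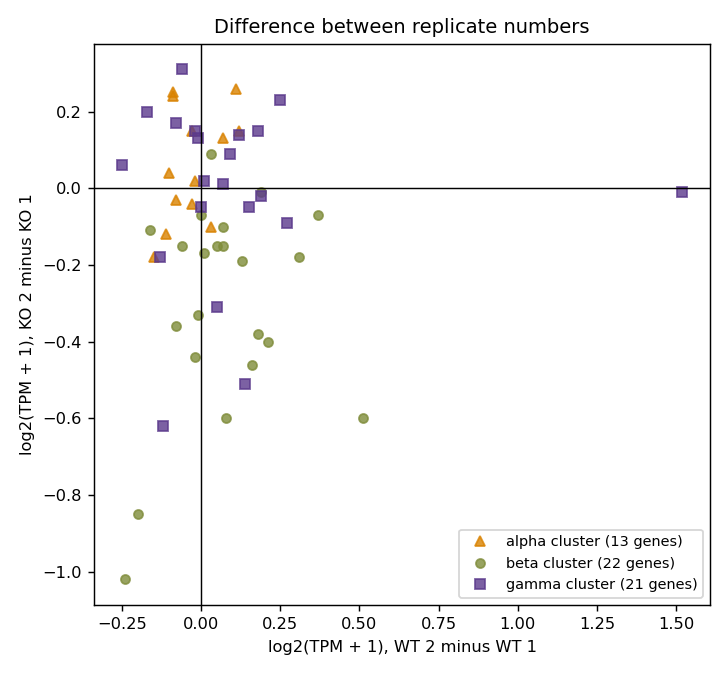
Difference of log2(TPM + 1) between the libraries numbered 2 and 1, WT 2 minus WT 1 on the horizontal axis and KO 2 minus KO 1 on the vertical axis, with a point for each of the 56 members above 0 in any library, coloured by cluster. Beta genes lie below 0 on the vertical axis with the exception of Pcdhb3, and lie on both sides of 0 on the horizontal axis.

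Other values differed between the KO libraries as well, and their part in the beta values was not tested. Of the 15 mesenchyme markers, 15 were tested, and their summed level was 1555 TPM in KO 1 and 1050 TPM in KO 2, against 1133 TPM in WT 1 and 956 TPM in WT 2. Of the 16 neuron markers, 15 were tested, and their sum was 432 TPM in KO 1 and 1184 TPM in KO 2, against 528 TPM in WT 1 and 814 TPM in WT 2. Neuron markers were thus lower in KO 1 than in KO 2, the reverse of the beta genes, while mesenchyme markers had the order of the beta genes. In the wild type both relations were the other way round. The neuron and beta sums were higher in WT 2 than in WT 1, and the mesenchyme sum was lower. The Y-linked gene Eif2s3y was listed at 0 TPM in KO 1 and had 58.1 TPM in KO 2, against 13.4 TPM in WT 1 and 0.174 TPM in WT 2. Within each genotype the library with more Y-linked RNA had the lower beta sum.

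Alpha genes were close to the limit of the table. None reached a mean of 1 TPM, 9 of 14 were above 0 in all 4 libraries, and Pcdha1 was listed at 0 in all 4. Pcdha11 (ENSMUSG00000102206), the most abundant variable alpha gene by its mean, had 0.302 TPM in KO 1 and 0.552 TPM in KO 2, against 0.364 TPM in WT 1 and 0.284 TPM in WT 2. Pcdha12 had 0.124 TPM in KO 1 and 0.231 TPM in KO 2, against 0.169 TPM in WT 1 and 0.225 TPM in WT 2. The genotypes overlapped in both. Pcdhac2, the C-type isoform that serotonergic axons need for even spacing in mouse, had 0.384 TPM in KO 1 and 0.277 TPM in KO 2, against 0.235 TPM in WT 1 and 0.144 TPM in WT 2. The KO values were both above the WT values. Pcdhac1 had 0.0206 TPM in KO 1 and was listed at 0 in KO 2, against 0.0566 TPM in WT 1 and 0 in WT 2.

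Among the 13 alpha genes above 0 in any library, both KO values were above both WT values for 3 (Pcdha3, Pcdha6 and Pcdhac2), beside 16.3% of all genes above 0. They were below for 1 (Pcdha7), beside 10.7%. Of the 22 beta genes, the same counts were 3 (Pcdhb4, Pcdhb10 and Pcdhb14) and 0. The alpha sum did not overlap between genotypes, with a log2 ratio of KO over WT of 0.45, which was 0.67 without KO 1, 0.19 without KO 2, 0.60 without WT 1 and 0.32 without WT 2. When the predicted genes inside the cluster were added, the sum was 1.90 TPM in KO 1 and 2.81 TPM in KO 2, against 2.20 TPM in WT 1 and 1.75 TPM in WT 2, and the genotypes overlapped. In the limma fit with no filter on low values, over 24346 genes, 0 alpha genes passed an adjusted p of 0.05 (0% of genes), and 1 of the 13 had an unadjusted p under 0.05 (3.91% of genes). That gene was Pcdha6, with 0.155 TPM in KO 1 and 0.122 TPM in KO 2, against 0.0230 TPM in WT 1 and 0 in WT 2. Its log2 difference was 0.17 (SE 0.05; limma unadjusted p = 0.035, adjusted p = 1.00).

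RNA for the factors that act on protocadherin promoters was present at similar levels in both genotypes, as a description, since no test of similarity was run. Of 18 chromatin regulators, 18 were tested and 0 passed the limma test in either direction, and 0 had an unadjusted p under 0.05. Their median log2 difference was 0.03, that of all genes tested. Ctcf, which encodes the insulator protein that binds protocadherin promoters and enhancers, had 124 TPM in KO 1 and 129 TPM in KO 2, against 124 TPM in WT 1 and 119 TPM in WT 2. Smchd1, which in mouse represses clustered protocadherin genes, had 67.6 TPM in KO 1 and 75.2 TPM in KO 2, against 72.7 TPM in WT 1 and 68.7 TPM in WT 2. Both overlapped between genotypes. The smallest p of the list belonged to Dnmt3b, a de novo DNA methyltransferase that methylates protocadherin promoters in mouse embryos, with 22.3 and 26.6 TPM in KO, against 26.5 and 30.3 TPM in WT (log2 difference -0.21, SE 0.13). Pds5b, a cohesin-associated factor, had 50.9 and 51.3 TPM in KO, against 49.7 and 46.2 TPM in WT (log2 difference 0.09, SE 0.08).

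RNA for proteins that act downstream of protocadherins gave no call either. None of the 14496 genes tested passed, so the absence of a call does not show equal levels. Of 15 genes for cytoplasmic partners, such as focal adhesion kinases and the WAVE complex, 14 were tested and 0 passed the limma test. The smallest p-values belonged to Axin1, the Wnt pathway scaffold that binds Pcdhgc3, and Wasf2, a WAVE subunit. Axin1 had 43.6 and 40.0 TPM in KO, against 42.5 and 50.8 TPM in WT (log2 difference -0.15, SE 0.12). Wasf2 had 51.2 and 47.9 TPM in KO, against 43.3 and 46.3 TPM in WT (log2 difference 0.14, SE 0.08). Of 6 genes for proteases that cleave protocadherins, ADAM10 and the gamma-secretase subunits, 6 were tested and 0 passed. Both KO libraries were above both WT libraries for 1 of the 6 and below for 2, beside 19.2% and 10.5% of all genes tested. Psen2 had 9.56 and 9.32 TPM in KO, against 10.2 and 12.0 TPM in WT (log2 difference -0.21, SE 0.13), and Ncstn had 62.3 and 64.8 TPM in KO, against 59.7 and 60.7 TPM in WT (log2 difference 0.08, SE 0.07).

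Of 12 protocadherins outside the clusters, 11 were tested, 0 passed the limma test and the median log2 difference was 0.14. Pcdh9 had 4.996 TPM in KO 1 and 6.11 TPM in KO 2, against 3.95 TPM in WT 1 and 3.12 TPM in WT 2. Its log2 difference was 0.53 (SE 0.19; limma unadjusted p = 0.043, adjusted p = 1.00). Pcdh20 stood lower in KO, with 1.83 TPM in KO 1 and 1.78 TPM in KO 2, against 4.04 TPM in WT 1 and 3.26 TPM in WT 2. Its log2 difference was -0.73 (SE 0.20; limma unadjusted p = 0.017, adjusted p = 1.00). In both genes the KO and WT libraries did not overlap. Of the 11 tested, 10 had a positive and 1 a negative log2 difference, beside 61.6% positive over all genes tested. Both KO libraries were above both WT libraries for 4 and below for 1, beside 19.2% and 10.5% of all genes tested. An unadjusted limma p under 0.05 was found for 1 higher and 1 lower gene, beside 3.5% of all genes tested.

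The genes around the clusters were examined over 500 kb on either side and between them. Outside the clusters 22 coding neighbours were tested, among them Pcdh1 and Pcdh12 of the list above. Of the 22, 0 passed the limma test and 1 had an unadjusted p under 0.05. Their log2 differences ran from -0.45 to 0.49 with a median of 0.03. That gene was Fchsd1, with 7.61 and 7.03 TPM in KO, against 4.89 and 4.99 TPM in WT (log2 difference 0.49). Taf7, a TFIID subunit gene that lies between the beta and gamma clusters and is not among the 22, had 22.002 and 20.9 TPM in KO. It had 21.9 and 21.2 TPM in WT. Taf7 overlapped between genotypes, as did Diaph1, a formin gene beyond the gamma cluster, with 30.5 and 28.2 TPM in KO, against 30.4 and 31.7 TPM in WT. Of the other coding neighbours among the 22, most overlapped as well, and those that did not are named next. Beyond the gamma cluster, both KO libraries were above both WT libraries for Hdac3, Fchsd1, Arap3, Pcdh1 and Rnf14. Before the alpha cluster they were above for Sra1 and Hars2 and below for Tmco6 and Wdr55. Over all genes tested the shares were 19.2% above and 10.5% below. The 3 predicted readthrough genes that overlap the clusters reached at most 0.440 TPM in any library. That value was of Gm37388 in WT 1, which had 0.202 TPM in WT 2 and was listed at 0 in both KO libraries.

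Markers of the labelled tissue were present, since all 15 otic epithelium markers were tested, and they summed to 1340 and 1443 TPM in KO, against 1784 and 1624 TPM in WT. Of the 15, 2 had a positive and 13 a negative log2 difference. Hindbrain markers summed to 191 and 161 TPM in KO, against 130 and 93.5 TPM in WT. That sum came almost wholly from Zic1 and Zic4. Of the 10 hindbrain markers 3 were tested, and Nkx2-2 and Ptf1a were at 0 in all libraries. Mesenchyme markers had a positive log2 difference in 14 of 15 and neuron markers in 12 of 15, beside 61.6% of all genes tested. The sums of both lists overlapped between genotypes, and the neuron sum was lowest in KO 1 and highest in KO 2. The hindbrain sums stood apart by genotype in the direction of Pcdhgc4 and the otic sums in the opposite direction, and the part of either in the Pcdhgc4 values was not tested. Endothelial markers summed to 258 and 217 TPM in KO, against 216 and 232 TPM in WT. Neural crest and glial markers summed to 199 and 212 TPM in KO, against 213 and 220 TPM in WT. Macrophage markers summed to 68.9 and 44.3 TPM in KO, against 42.9 and 54.9 TPM in WT, and erythroid markers to 6965 and 7897 TPM in KO, against 5614 and 12606 TPM in WT. Meis2 itself had 73.2 and 76.6 TPM in KO, against 79.0 and 88.7 TPM in WT. Its gene-level value does not check the genotype labels, because the sources used here do not say which exons the mutation removes.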

How the data were processed

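Gene-level TPM were deposited by the authors, with Salmon 0.9.1 and the build GRCm38 per the submitters' processing notes. Values between 0 and 1 TPM were whole millionths when multiplied by 4 in KO 1, WT 1 and WT 2, and by 3 in KO 2 (100% of them, tolerance 0.02 of a step), so they look like means of 4 and 3 values. The sources used here do not state how transcripts were summed. Depth per sample is unknown, so no counting interval is given. IDs were matched without version to GENCODE M21 (GRCm38), which named 34582 of 34866 and matched 57 of 57 members with the same version.

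Groups and numbers came from the sample titles. KO was compared with WT by limma 3.58.1 (R 4.3.3) on log2(TPM + 1), with no covariate and with a mean-variance trend. Two-sided p-values were adjusted by Benjamini-Hochberg over the 14496 genes averaging at least 1 TPM. A pseudocount of 1 TPM understates changes of low genes. The fit was also run on simulated data, with an outcome that is not given here. Cluster sums, medians and counts are descriptions with no test. Named genes were the 2 most abundant members per class, all C-type members, the 2 smallest p-values and the largest number difference per cluster, and the 2 smallest p-values per marker or pathway list. Alternatives were other pseudocounts and filters, coding genes only, median-of-ratios and quantile normalization, a replicate block, no variance trend, sums over the cluster intervals, and leaving out each library. The members and lists were chosen with earlier results of these data known.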

Additional observations from a re-analysis of the deposited data

How the results depend on the processing

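Among values that summarise a comparison, 69 recomputed under an alternative stayed on their side or within their limit and 6 moved. Staying within a limit did not mean keeping the sign. The beta median was counted as staying, at -0.23 without KO 1 and 0.27 without KO 2. The number of genes called by limma over all tested genes was 0 to 2 when each library was left out, and it was 0 for members in every such fit. The log2 ratio of the beta sum was 0.05, and -0.43 to 0.42 with a library left out. Members above in number 2 in both genotypes numbered 6, 10 with no filter and 2 with a mean of at least 5 TPM. Members without overlap between genotypes numbered 7 of 26 tested (26.9%) and 14 of 56 with no filter (25%). With a mean of at least 5 TPM they numbered 2, since the filter sets how many are tested. Over all genes tested, KO stood wholly above WT for 19.2% and wholly below for 10.5%. With no filter these shares were 16.3% and 10.7%, so the member counts were near the background. For single named genes, 426 recomputed values kept their sign and call and 10 changed sign. With a library left out, log2 differences ran from -0.55 to 0.29 for Pcdhb7, -0.17 to 0.43 for Pcdhb22, -0.34 to 0.17 for Pcdhgb6, -0.15 to 0.10 for Pcdhga11, -0.82 to 0.69 for Pcdhgc5, -0.18 to 1.13 for Nhlh2 and -0.54 to 1.24 for Hbb-bt. Pcdhgc5 was at 0.01 with a pseudocount of 0.1 TPM. The cause was not tested. Pcdhgc4 lay between 0.70 and 0.95 with a library left out, and its adjusted p ranged from 0.44 with the replicate block to 1.00. The median of the gamma genes was -0.00 under quantile normalization.

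Same-numbered libraries deviated from their group means together (correlation 0.42 over 14496 genes), but there are 2 pairs and the labels give the number no meaning. With the replicate block, limma called 0 genes at an adjusted p under 0.05 and 1178 at an unadjusted p under 0.05. With a mean of at least 5 TPM no beta gene was left, so that median has no value. With unknown depth, the counting error of the low alpha and beta levels cannot be given.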
